A study of Mus musculus with 9 samples.

Results

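The transcripts described here carry the biotypes TEC (models that still await experimental proof) or sense_intronic in the gene annotation used for counting. They were chosen by their summed counts, which had to come to at least 450 over the 9 libraries and to at least 1 over the 3 control libraries. This left 61 of the 3566 TEC or sense_intronic rows and of the 55401 rows in all. Names of host genes of small nucleolar RNAs and the imprinted transcripts Rian, Mirg and Meg3 were left out. Of the 61 transcripts, 51 were TEC and 10 were sense_intronic, and all 61 passed the filter on low counts.

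The libraries came from primary neonatal mouse ventricular myocytes (NMVMs) of wild-type C57BL/6J pups aged 1 day, with 3 libraries in each of 3 groups. Control cultures stayed at normal oxygen in complete medium (DMEM with 10% FBS). Hypoxia cultures were moved to DMEM lacking glucose and serum and sealed in a chamber with an oxygen absorber (AnaeroPack) for 6 h, and hypoxia + rSRGN cultures had recombinant serglycin, a proteoglycan core protein, added for the same 6 h. Against control, the effect of low oxygen and that of the change of medium therefore cannot be told apart. Poly(A)-enriched RNA was sequenced, and the labels do not say whether the 3 libraries of a group were separate isolations, so p-values measure the spread between these libraries, which may be technical.

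A TEC entry is a transcript model built from polyadenylated sequence evidence that has not yet been established as a gene, and a sense_intronic entry is an RNA that lies in an intron of another gene on the same strand. Intron RNA is normally removed by the spliceosome and broken down by the nuclear exosome, so a polyadenylated RNA from inside an intron can be an independent transcript, a message of the host that ended early or a piece of unspliced host RNA. Counts over exons do not tell these forms apart.

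Most of these transcripts were short, unspliced and nested in a protein-coding gene. A single exon made up 57 of the 61, and exon length ran from 598 to 30942 bases with a median of 2509. For 45 of them a protein-coding gene covered at least 50% of the span and is called the host here. The host lay on the same strand for 34 and on the opposite strand for 11. No base of the transcript was shared with a host exon in 34 cases, and 11 cases shared some. There were 44 distinct hosts, because Usp33 held both Gm43857 and Gm43858. Of the 16 transcripts without a host, 13 had a protein-coding gene within 10 kb. Counting ignored strand, so unspliced RNA of an opposite-strand host that falls within a transcript cannot be told apart from it. Fragments wholly within exon bases of more than 1 gene were counted to none of them, which bears on the 20 transcripts that shared exon bases with some other gene.

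The last 50 bases are shown for the transcripts with the largest rises and falls in hypoxia, since a polyadenylated RNA would end there if the model is complete. They were read 5′ to 3′ from the GENCODE M21 transcripts on GRCm38, with the hexamer AATAAA or ATTAAA and any run of at least 10 A in capitals. Not shown are those of D330025C20Rik, of Gm43621, which shares bases with a host exon, and of Gm47644, whose length differed between annotations. The first 4 rose and the last 3 fell.
Gm42725: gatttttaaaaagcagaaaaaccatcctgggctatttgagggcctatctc
Gm43430: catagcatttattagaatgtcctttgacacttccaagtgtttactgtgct
Gm45540: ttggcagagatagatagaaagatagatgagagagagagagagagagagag
Gm45719: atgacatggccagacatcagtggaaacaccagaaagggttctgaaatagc
BC002189: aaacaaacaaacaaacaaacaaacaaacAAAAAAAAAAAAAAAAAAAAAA
Gm45819: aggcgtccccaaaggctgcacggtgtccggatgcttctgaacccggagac
Gm37829: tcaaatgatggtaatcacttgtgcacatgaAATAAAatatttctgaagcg

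Gm45540 ended in a repeat of AG. The model of BC002189 ended in a run of 22 A that followed a repeat of AAAC. Gm37829 held AATAAA near its end, as did D330025C20Rik. Over all 61 transcripts, AATAAA was in the last 50 bases on the transcript strand in 15 (24.6%), against 21.8% of the 3565 TEC or sense_intronic genes with a sequence, and ATTAAA without AATAAA was in 7 (11.5%), against 7.12%. By call in hypoxia, AATAAA was there in 5 of the 27 that were higher, 7 of the 20 that were lower and 3 of the 14 not called, and ATTAAA alone in 3, 1 and 3. A match describes letters and no more.

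The summed counts chose the members and are given only as a description. Just inside the limit were Gm43921, with 451 counts, and C230096K16Rik, with 455. Just outside were Gm36638 and Gm38077, with 444 each. Gm36988, with 738 counts, and Gm48565, with 2134, were left out because all of their counts were in the hypoxic groups. A transcript can pass through 1 group alone: 150 counts were reached by 39 transcripts in the control group, 44 in the hypoxia group and 51 in the hypoxia + rSRGN group. Counts of members over the comparisons with control are therefore a description of the chosen transcripts and no support for a direction.

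Library totals ran from 21669017 to 22781557 fragments in control, 16583985 to 18148474 in hypoxia and 16640239 to 20826701 in hypoxia + rSRGN, and the 61 transcripts took between 0.0297% and 0.0413% of a library. Levels below are in CPM, which is a count scaled by library size after TMM. The 20 cardiomyocyte markers fell together in hypoxia, with a median log2 fold change of -3.59, and their summed level ran from 61830 to 75210 CPM in control, 5180 to 8130 CPM in hypoxia and 10620 to 11300 CPM with rSRGN. None of the 20 was at 0 in any group. Of 15 fibroblast markers 12 rose in hypoxia, of 12 endothelial markers 1 rose and 7 fell, and of 11 macrophage markers tested 10 fell, where 26.4% of all genes tested rose and 25.1% fell. The summed level of the fibroblast list went from 13260 to 15440 CPM in control to 27860 to 30690 CPM in hypoxia. The endothelial list went from 379 to 420 CPM to between 616 and 698 CPM, the rise being carried by Eng, whose mean went from 174.7 to 435.3 CPM while Pecam1, Cdh5, Kdr, Tie1, Emcn, Vwf and Erg fell. The macrophage list went from 235 to 251 CPM to between 25.5 and 29.0 CPM. Both mitochondrial rRNAs rose, with a summed level of 2010 to 2500 CPM in control and 23300 to 25430 CPM in hypoxia. Fewer cells of a type and less RNA per cell cannot be told apart in such bulk libraries, and the part of these shifts in the results below was not tested.

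Hypoxia against control moved most of these transcripts, in both directions. The 5 largest rises were Gm42725 in Smim14, Gm43430 in Nfkb1, Gm45540 in Hpgd, Gm45719 in Ate1 and Gm43621 opposite Ptgs1. The 5 largest falls were D330025C20Rik beside Kcng2, BC002189 in Trim55, Gm45819 beside Wee1, Gm47644 in Cep85l and Gm37829 beside Fsd2. Calls needed a change of at least 1.5-fold and an adjusted p under 0.05 (edgeR quasi-likelihood fit, Benjamini-Hochberg over 16762 genes), which 51.6% of all genes reached. By this rule 27 transcripts were higher in hypoxia, where 26.4% of all genes tested were, 20 were lower, where 25.1% were, and 14 were not called. Among genes that are not protein-coding, 39.3% were higher and 20.8% lower. The median log2 fold change of the 61 was 0.28, with a range from -5.15 to 7.46, and over all genes tested it was 0.05.

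The split between rises and falls differed with the set of transcripts taken. A limit on control counts favours falls in advance, because the same counts enter the comparison. Splits under such a limit therefore cannot show what produced the split among the chosen transcripts, and its cause was not tested. Of the 39 transcripts with at least 150 counts in control, 6 were higher and 20 lower. Of the 23 with at least 150 counts in both control and hypoxia, 6 were higher and 6 lower. When candidates were instead taken for at least 150 control counts, 59 qualified, of which 6 were higher and 37 lower. Over all 448 TEC genes tested, 46.9% were higher and 14.96% lower. The 3 control libraries and the 3 hypoxia libraries did not overlap for 27 transcripts that were above in hypoxia, against 37.7% of all genes, and for 22 that were below, against 35.3%.

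**Figure D1:**
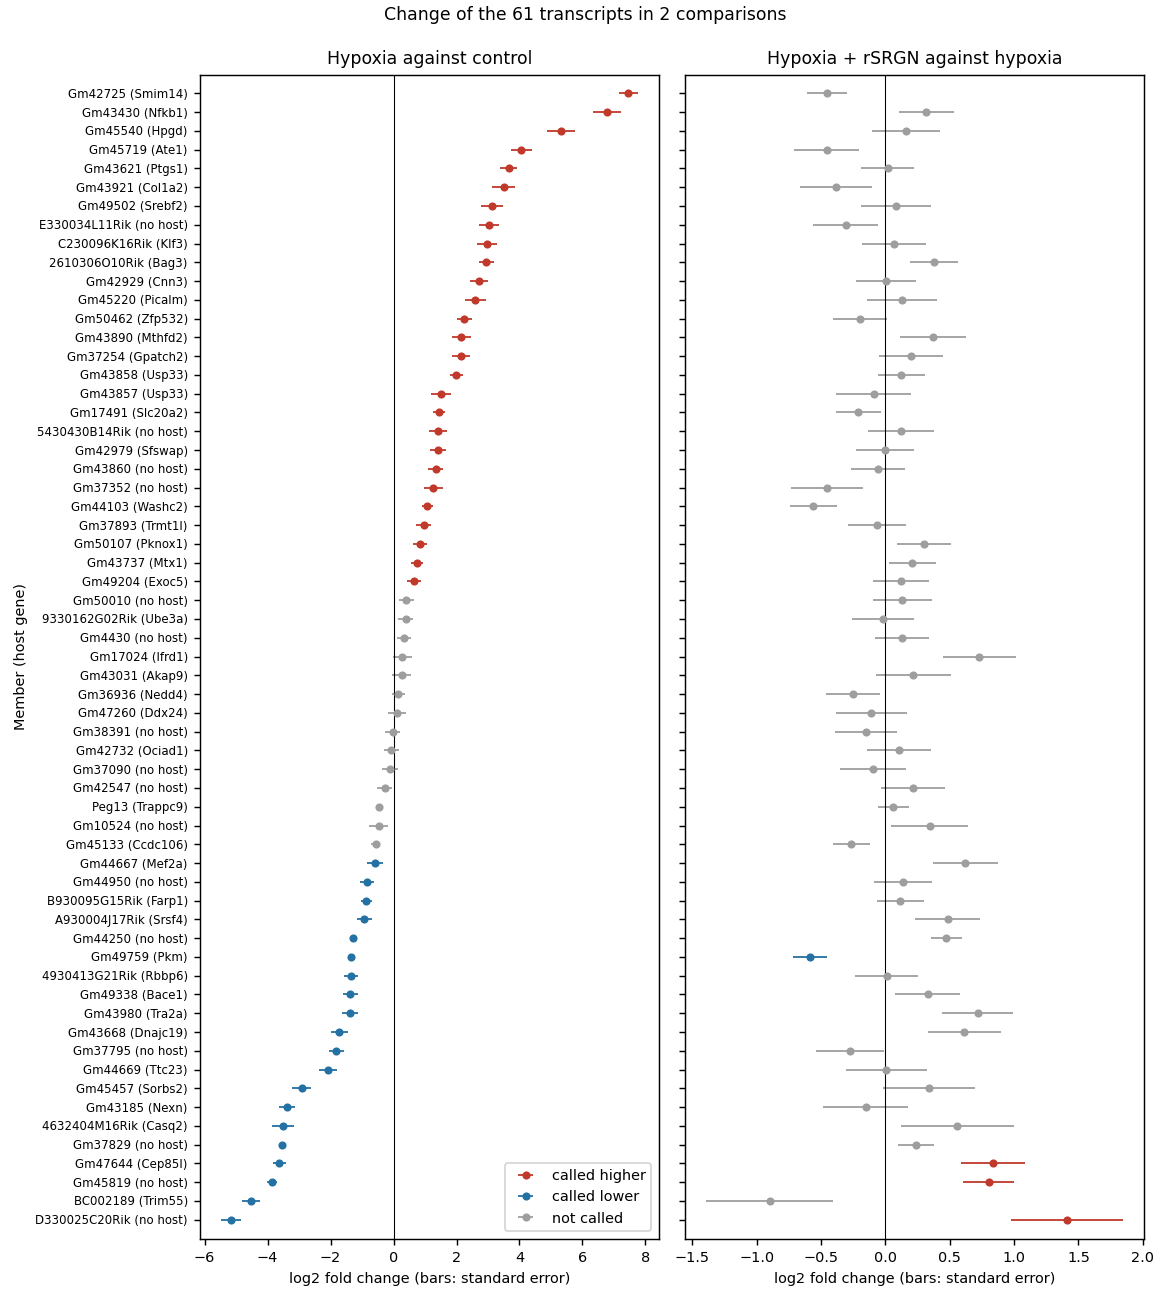
Each point is the log2 fold change of one of the 61 transcripts (bars, standard error), with hypoxia against control on the left and hypoxia + rSRGN against hypoxia on the right, ordered by the left panel. The host gene is in brackets. The left panel runs from -5.15 for D330025C20Rik to 7.46 for Gm42725, with 27 transcripts called higher and 20 lower, while the right panel, on a narrower axis, has 3 called higher and 1 called lower.

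Gm42725 (ENSMUSG00000105601.1, chr5:65531568-65535760, minus strand) had the largest rise of the 61. It lies in an intron near the 5′ end of Smim14, a small integral membrane protein gene, and its nearest host exon is 1029 bases away. It was at 0.0899, 0.181 and 0.242 CPM in the control libraries, at 40.6, 22.2 and 29.4 CPM in hypoxia and at 24.8, 19.3 and 23.4 CPM with rSRGN. Every hypoxic library was thus far above every control library. The log2 fold change was 7.46 ± 0.30 (SE, n = 3 per group, edgeR adjusted p = 1.44e-15). Smim14 itself was at 68.0, 64.4 and 64.1 CPM in control and at 84.9, 86.2 and 87.0 CPM in hypoxia. Its libraries did not overlap either, but its log2 fold change of 0.39 was under the 1.5-fold limit. Per kilobase of exon, Gm42725 stood at 0.993% of the level of Smim14 in control and at 136% in hypoxia. The exon length of a host counts all of its annotated exon bases, so such percentages depend on that length. In CPM, Gm42725 was below Smim14 in every hypoxia library.

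Gm43430 (ENSMUSG00000106149.1, chr3:135650670-135654566, minus strand) lies in an intron of Nfkb1, which encodes a precursor of an NF-kappaB subunit. It had 3 counts in the control group, where 1 library had none, and 308 in the hypoxia group. The ratio, corrected for library size, was 125.7 with an exact 95% interval from 42.6 to 612.7 that covers counting error only. Its level was 6.07, 5.89 and 5.39 CPM in hypoxia and 6.08, 9.35 and 6.13 CPM with rSRGN, against at most 0.0899 CPM in a control library. Nfkb1 had a log2 fold change of 0.28 and was not called.

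Gm45540 (ENSMUSG00000110397.1, chr8:56311304-56314909, plus strand) lies in an intron of Hpgd, the gene of an enzyme that starts prostaglandin breakdown. It was at 0.0449, 0.181 and 0.0483 CPM in control and at 4.94, 3.70 and 3.13 CPM in hypoxia, a log2 fold change of 5.32 ± 0.44 (SE, n = 3 per group, edgeR adjusted p = 3.39e-10). The 2 groups were well apart, although the control group held few counts. Hpgd rose with it, by 2.33 ± 0.14 on the log2 scale. Without control replicate 2 the log2 fold change of Gm45540 was 6.20, and without control replicate 1 it was 4.99. For Gm43430 the corresponding values were 6.24 without control replicate 2 and 7.59 without control replicate 1.

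Gm45719 (ENSMUSG00000108940.1, chr7:130456012-130457673, minus strand) sits near the middle of Ate1, an arginyltransferase gene, 6458 bases from the nearest exon. It was at 0.449, 0.361 and 0.193 CPM in control and at 4.62, 6.70 and 5.91 CPM in hypoxia, a log2 fold change of 4.06 ± 0.34 (SE, n = 3 per group, edgeR adjusted p = 4.82e-10). In all, 2 protein-coding genes overlap the span of Gm45719. Ate1 was its host by the rule used here, and the change of the other gene was not compared. Ate1 moved the other way. It was at 89.1, 88.5 and 87.2 CPM in control and at 41.8, 43.8 and 33.6 CPM in hypoxia, and fell by 1.15 on the log2 scale.

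Gm43621 (ENSMUSG00000106933.1, chr2:36248709-36250730, minus strand) runs opposite to the end of Ptgs1, the gene of the constitutive cyclooxygenase, and shares 7.32% of its bases with an exon of that gene. Its level was 0.764, 0.316 and 0.435 CPM in control and 5.64, 7.45 and 6.31 CPM in hypoxia, a log2 fold change of 3.66 ± 0.28. Ptgs1 rose by 1.49 ± 0.08. Both sets of libraries were separate between the groups, and fragments wholly within the shared bases were counted to neither gene.

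**Figure D2:**
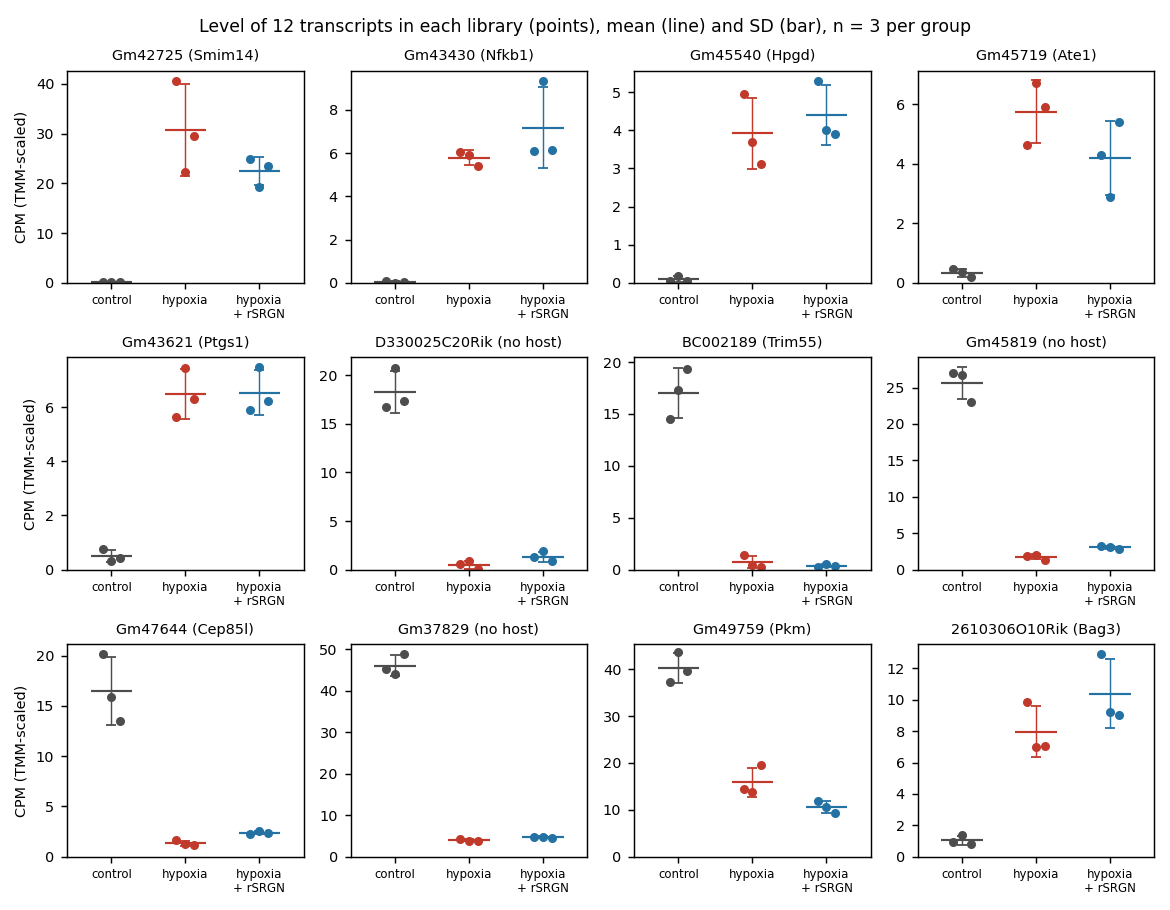
The level of 12 transcripts in CPM is plotted for each library (points), with the mean (line) and SD (bar) of each group of 3. The 5 largest rises in hypoxia have control libraries at or near 0, the 5 largest falls have control libraries between 13.5 and 48.9 CPM, and the hypoxia + rSRGN libraries lie nearer to the hypoxia libraries than to the control libraries in each panel.

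Among the largest falls, BC002189 (ENSMUSG00000104465.1, chr3:19685971-19686568, plus strand) lies in a late intron of Trim55, a ubiquitin ligase of the sarcomere. It was at 14.5, 17.3 and 19.3 CPM in control and at 1.40, 0.462 and 0.290 CPM in hypoxia, and Trim55 was at 447, 473 and 488 CPM and then at 23.3, 21.96 and 15.6 CPM. Transcript and host fell by the same amount, with a log2 fold change of -4.53 for each (SE 0.29 for BC002189 and 0.11 for Trim55). Without hypoxia replicate 1, the highest of its group, the value for BC002189 was -5.48.

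D330025C20Rik, a TEC gene on chromosome 18, overlaps part of Kcng2, which encodes a modifier subunit of voltage-gated potassium channels, on the opposite strand. Its level was 16.8, 20.8 and 17.3 CPM in control and 0.537, 0.924 and 0.0579 CPM in hypoxia. The log2 fold change was -5.15 ± 0.32 (SE, n = 3 per group, edgeR adjusted p = 2.55e-12), and leaving out hypoxia replicate 3 or hypoxia replicate 2 gave -4.64 or -5.87. Kcng2 fell by 3.86 ± 0.16.

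Gm47644 (ENSMUSG00000112734.1), a sense_intronic transcript, is nested in Cep85l, a gene of a centrosomal protein, but 60.7% of its exon bases are also exon bases of Pln, the phospholamban gene, whose product restrains the calcium pump of the sarcoplasmic reticulum. It was at 20.2, 15.8 and 13.5 CPM in control and at 1.61, 1.21 and 1.16 CPM in hypoxia, a log2 fold change of -3.63 ± 0.21. Cep85l, its host by the rule used here, rose by 0.62 ± 0.11. Pln went from a mean of 676.9 CPM to 25.3 CPM, a log2 fold change of -4.74 ± 0.12. Fragments wholly within the bases that Gm47644 and Pln share were counted to neither gene.

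Gm37829 (ENSMUSG00000104453.1, chr7:81530309-81532521, minus strand) lies 787 bases downstream of Fsd2 on the same strand and shares 13.01% of its bases with the noncoding gene 2900076A07Rik. It fell from 45.3, 44.0 and 48.9 CPM in control to 4.35, 3.87 and 3.71 CPM in hypoxia (log2 fold change -3.53 ± 0.12, n = 3 per group, edgeR adjusted p = 7.19e-17). Fsd2 fell by 4.38 ± 0.14. Gm45819 (ENSMUSG00000109904.1, chr7:110119990-110121740, plus strand) ends 306 bases upstream of Wee1, the gene of a kinase that holds cells back from mitosis. It fell from 27.0, 26.7 and 23.1 CPM to 1.83, 2.08 and 1.39 CPM, a log2 fold change of -3.85 ± 0.16, while Wee1 fell by 1.33 ± 0.10. None of these libraries overlapped between control and hypoxia.

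Of the 44 hosts, each included because a transcript inside it passed the count limit, 12 were higher in hypoxia, where 26.4% of all genes were, and 12 lower, where 25.1% were, with a median log2 fold change of 0.09 and a range from -4.53 to 2.33. For 8 pairs both were higher, namely 2610306O10Rik in Bag3, C230096K16Rik in Klf3, Gm42929 in Cnn3, Gm43621 opposite Ptgs1, Gm43890 in Mthfd2, Gm43921 in Col1a2, Gm45540 in Hpgd and Gm50462 in Zfp532. For 6 pairs both were lower, which were 4632404M16Rik in Casq2, BC002189 in Trim55, Gm43185 in Nexn, Gm44669 in Ttc23, Gm45457 in Sorbs2 and Gm49338 in Bace1. In 13 pairs the transcript was higher while its host was not called, as with Gm49502 in Srebf2, a regulator of sterol synthesis, where the log2 fold change was 3.12 for the transcript and 0.27 for the host. In 6 pairs the transcript was lower and the host not called. These combinations, and the opposite calls below, were not counted over other genes lying inside a protein-coding gene. They therefore have no background share beside them and only describe these pairs.

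Transcript and host were called in opposite directions in 4 pairs. Gm45719 and Gm17491 were higher while Ate1 and Slc20a2 were lower, and Gm43980 and Gm47644 were lower while Tra2a and Cep85l were higher. Cep85l is the host of Gm47644 only by the rule used here. Pln, which holds 60.7% of the exon bases of Gm47644, fell with it, by 4.74 on the log2 scale. Gm17491 (ENSMUSG00000097042.2, chr8:22480291-22483332, plus strand) lies near the 5′ end of Slc20a2, a sodium-dependent phosphate transporter gene. It was at 2.88, 3.61 and 3.24 CPM in control and at 7.84, 11.2 and 7.59 CPM in hypoxia, and Slc20a2 was at 164, 171 and 164 CPM and then at 55.2, 67.0 and 52.2 CPM. The transcript rose by 1.45 ± 0.19 and the host fell by 1.51 ± 0.09 on the log2 scale. Gm43980 (ENSMUSG00000107962.1, chr6:49254851-49256462, plus strand) runs opposite to Tra2a, the gene of a splicing regulator, without sharing exon bases. It fell by 1.38 ± 0.26 while Tra2a rose by 0.86 ± 0.08.

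**Figure D3:**
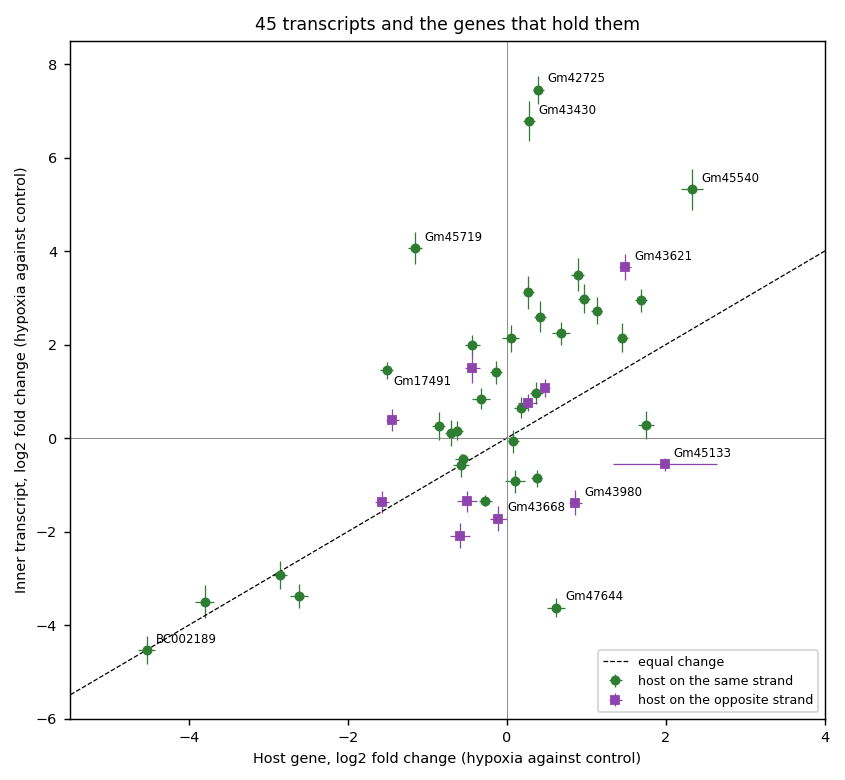
The log2 fold change of 45 transcripts in hypoxia against control (vertical axis) is plotted against that of the host gene (horizontal axis), with standard errors as bars and the line of equal change dashed. BC002189 lies on the line at -4.53 on both axes, Gm42725 and Gm43430 lie far above it with hosts at 0.39 and 0.28, and Gm47644 lies far below it with its host at 0.62.

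Of the 6 pairs in which both fell, 5 had no called change in the ratio of transcript to host. 4632404M16Rik (chr3:102134615-102137496) lies in Casq2, the calcium-binding protein of the sarcoplasmic reticulum, and its log2 fold change was -3.5 against -3.80 for Casq2. Gm43185 (chr3:152250029-152252803) shares 10.3% of its bases with Nexn, a gene of the sarcomere's Z-disc, and its log2 fold change was -3.38 against -2.61 for Nexn. Gm45457 (chr8:45779228-45782316) lies in Sorbs2, an adaptor gene of muscle cell contacts, with values of -2.92 and -2.86. Gm49338 in Bace1, the gene of the beta-secretase, had -1.38 and -1.57. In these 4 pairs and in BC002189, the ratio changed by between -0.76 and 0.45 on the log2 scale. In the sixth pair, Gm44669 fell by 2.09 and Ttc23 by 0.59, and the ratio was called lower, with a log2 change of -1.43 ± 0.29 (limma adjusted p = 2.69e-04). The cardiomyocyte markers fell by a median of 3.59 in the same libraries.

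The ratio of each transcript to its host was tested as the difference of their log2 CPM in limma, over 1045 pairs of a gene lying inside a protein-coding gene, of which 60.6% were called. It was higher in hypoxia for 22 of the 45 transcripts, where 50.1% of all pairs were higher, and lower for 10, where 10.4% were lower. The median change was 0.66 for the 45 and 0.995 for all pairs on the log2 scale. The 34 transcripts on the host's strand gave 19 higher and 5 lower, and the 11 on the opposite strand gave 3 higher and 5 lower. With hosts on the same strand alone, 24 of the 34 transcripts and 330 of all 478 pairs were called. The share of rises among the 45 was thus near that of all pairs, while the share of falls was above it. Directions over all pairs were not split by strand. The 45 were chosen by their counts, so these shares are a description.

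The largest rises of the ratio were 6.42 ± 0.27 for Gm42725, 5.07 ± 0.31 for Gm43430, 4.93 ± 0.33 for Gm45719 and 2.93 ± 0.21 for Gm17491 on the log2 scale. A prior count of 2 went into these ratios and understates changes of low transcripts, so the order can depend on it. In Gm17491 the log2 ratio was -5.78, -5.52 and -5.61 in control, -2.80, -2.58 and -2.77 in hypoxia and -3.09, -2.97 and -3.09 with rSRGN. All 6 hypoxic libraries were above all 3 control libraries. The largest falls were -4.14 ± 0.24 for Gm47644, -2.41 ± 0.38 for Gm45133, -2.28 ± 0.29 for Gm43980 and -1.55 ± 0.28 for Gm43668. The value of Gm47644 is relative to Cep85l and not to Pln, with which it shares 60.7% of its exon bases. For Gm45133 the larger change was that of its host, as Ccdc106 was at 0.180, 0.406 and 0 CPM in control and at 1.07, 0.636 and 0.695 CPM in hypoxia. Gm45133 (chr7:5059277-5062049) itself was at 14.7, 17.1 and 18.4 CPM in control and 11.9, 11.8 and 10.1 CPM in hypoxia, a log2 fold change of -0.56 that was under the 1.5-fold limit, and it shares 46.5% of its bases with exons of Ccdc106 on the other strand. It passed that limit without control replicate 1 (-0.66), hypoxia replicate 1 (-0.61) or hypoxia replicate 2 (-0.60), and also with RLE scaling (-0.59), DESeq2 (-0.59), only the 2 groups in the fit (-0.59) or a filter of at least 1 count (-0.62). Gm43668 (chr3:34070659-34076000), opposite Dnajc19, a gene of a mitochondrial inner membrane protein, was at 5.12, 4.06 and 4.49 CPM in control and 1.13, 1.56 and 1.45 CPM in hypoxia, while Dnajc19 was not called.

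**Figure D4:**
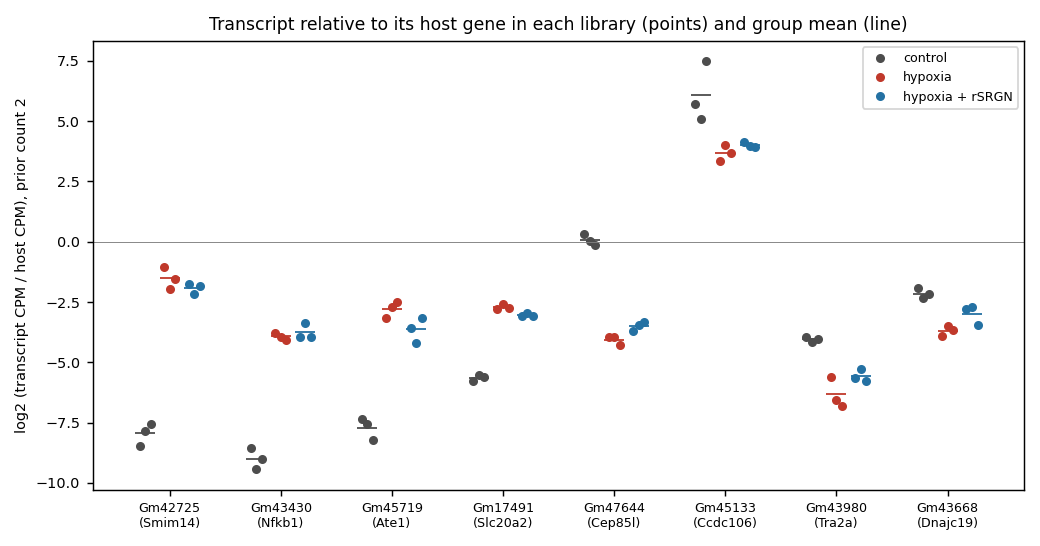
The log2 ratio of a transcript to its host (vertical axis, from CPM with a prior count of 2) is plotted for each library of the 3 groups, with group means as lines, for the 4 largest rises and the 4 largest falls in hypoxia. For every pair the 3 control libraries stand apart from the 3 hypoxia libraries, by the most in Gm42725, whose ratio changed by 6.42 on the log2 scale.

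Usp33, a deubiquitinase gene, held 2 transcripts at its 3′ side. Gm43858 (ENSMUSG00000104546.1, chr3:152386260-152388037, plus strand) lies in an intron on the same strand and was at 1.66, 1.53 and 1.40 CPM in control and 6.23, 6.88 and 5.33 CPM in hypoxia, a log2 fold change of 2.00 ± 0.21. Gm43857 (ENSMUSG00000104548.1, chr3:152391162-152394240, minus strand) runs opposite to the end of Usp33 and shares 48.0% of its bases with exons of that gene. It was at 1.08, 0.948 and 1.93 CPM and then at 2.79, 2.95 and 5.50 CPM, a log2 fold change of 1.51 ± 0.32. Both rose, with no overlap between the groups, while Usp33 had a log2 fold change of -0.44 and was not called. Per kilobase, Gm43858 went from 21.8% of the level of Usp33 in control to 118% in hypoxia, by the full exon length of Usp33. In CPM, Gm43858 was below Usp33 in every hypoxia library, where Usp33 was at 31, 27.4 and 26.35 CPM.

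Per kilobase of exon, the 61 transcripts had a median level of 1.81 CPM over the 9 libraries, against 4.87 CPM for the protein-coding genes tested. The highest by this mean, which pools the groups, were 2610306O10Rik, BC002189, Gm37829, Gm44250 and Gm45819, from 10.6 down to 5.80 CPM per kilobase. The order differed between groups. In control BC002189 was highest, at 28.5 CPM per kilobase, followed by Gm37829 at 20.8, whereas in hypoxia 2610306O10Rik was highest, at 13.01, followed by Gm42725 at 7.33. 2610306O10Rik (ENSMUSG00000108614.1, chr7:128538932-128539543, plus strand) lies in an intron of Bag3, a co-chaperone gene of stressed muscle. It was at 0.899, 1.35 and 0.821 CPM in control, at 9.83, 6.99 and 7.07 CPM in hypoxia and at 12.9, 9.25 and 9.03 CPM with rSRGN. Bag3 was at 154, 169 and 151 CPM, then at 543, 503 and 486 CPM and then at 593, 673 and 624 CPM. Both rose in hypoxia, by 2.95 ± 0.24 and 1.69 ± 0.08 on the log2 scale, and the ratio rose by 1.16 ± 0.25 (limma adjusted p = 5.82e-04).

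Gm44250 (ENSMUSG00000107881.1, chr6:5216258-5220486, minus strand) lies 366 bases downstream of Pon3, a lactonase gene, on the same strand. It was at 45.6, 45.2 and 48.4 CPM in control, at 22.1, 18.5 and 16.9 CPM in hypoxia and at 29.97, 28.04 and 21.9 CPM with rSRGN. The fall in hypoxia was 1.27 ± 0.12 on the log2 scale, and the neighbouring Pon3 had a log2 fold change of -0.09. Among transcripts at the count limit, Gm43921 in the collagen gene Col1a2 had a log2 fold change of 3.496 ± 0.36 and C230096K16Rik in Klf3, a gene of a transcriptional repressor, of 2.98 ± 0.31. Their hosts rose by 0.89 and 0.97. Gm43921 remained a small fraction of its host, at 0.109% of the level of Col1a2 per kilobase in control and 0.671% in hypoxia. Peg13, an imprinted transcript inside Trappc9, was not called, with a log2 fold change of -0.45.

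Recombinant serglycin during hypoxia moved few of these transcripts. Against hypoxia alone, 3 were higher, where 2.27% of all genes were, and 1 was lower, where 0.859% were (3.13% in either direction, edgeR). Among genes that are not protein-coding, 1.05% were higher and 1.36% lower. The median log2 fold change of the 61 was 0.12, within a range from -0.90 to 1.41. The 3 that rose had fallen in hypoxia and remained under control with rSRGN. Their call depended on how the test was made, since with only the 6 libraries compared in the fit none of the 61 was called (11 had an unadjusted p below 0.05) and DESeq2 called 2. Without hypoxia replicate 3 or rSRGN replicate 2, 1 of the 61 was called.

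Gm45819 rose from 1.83, 2.08 and 1.39 CPM in hypoxia to 3.28, 3.08 and 2.90 CPM with rSRGN, a log2 fold change of 0.80 ± 0.20 (SE, n = 3 per group, edgeR adjusted p = 0.00774). The libraries did not overlap, and the call was kept when any 1 of the 9 libraries was left out but not with only the 2 groups in the fit (edgeR adjusted p = 0.0567). The neighbouring Wee1 had a log2 fold change of 0.09. Gm47644 rose from 1.61, 1.21 and 1.16 CPM to 2.20, 2.55 and 2.38 CPM, by 0.84 ± 0.25 (edgeR adjusted p = 0.0235), and lost its call without hypoxia replicate 2 (edgeR adjusted p = 0.0561), hypoxia replicate 3 (0.0853) or rSRGN replicate 2 (0.0907). In those 3 fits the log2 fold change of Gm47644 was 0.78, 0.75 and 0.78, still past the 1.5-fold limit. Pln, with which Gm47644 shares bases, rose by 0.90 ± 0.11.

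D330025C20Rik rose from 0.537, 0.924 and 0.0579 CPM to 1.31, 1.88 and 0.845 CPM, and these libraries overlapped. Its log2 fold change was 1.41 ± 0.44 (edgeR adjusted p = 0.0302), and that of Kcng2 was 0.86. The call was lost in DESeq2 (adjusted p = 0.0818) and, in edgeR, without hypoxia replicate 1 (adjusted p = 0.0518), hypoxia replicate 3 (0.127), rSRGN replicate 1 (0.0673) or rSRGN replicate 2 (0.189). The log2 fold change was 1.44 in DESeq2, and with 1 library left out it ran from 0.90 (without hypoxia replicate 3) to 2.13 (without hypoxia replicate 2). In the same comparison 17 of 20 cardiomyocyte markers rose, where 2.27% of all genes did, with a median log2 fold change of 0.75, and their part in these 3 rises was not tested.

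Gm49759 (ENSMUSG00000111394.1, chr9:59672814-59676700, plus strand) was the 1 transcript that fell with rSRGN. It lies towards the 3′ end of Pkm, the pyruvate kinase gene, and shares 19.7% of its bases with exons of that gene. It was at 37.2, 43.6 and 39.6 CPM in control, 14.4, 13.8 and 19.5 CPM in hypoxia and 11.9, 10.6 and 9.35 CPM with rSRGN, so that each group lay below the one before it. The log2 fold change was -1.34 ± 0.12 in hypoxia against control and -0.59 ± 0.13 with rSRGN against hypoxia (edgeR adjusted p = 0.00469). The latter was just past the 1.5-fold limit. It was under that limit without control replicate 1 (-0.58), control replicate 2 (-0.58), hypoxia replicate 3 (-0.42), rSRGN replicate 2 (-0.58) or rSRGN replicate 3 (-0.50). It was also under that limit with RLE scaling (-0.56), DESeq2 (-0.56), only the 2 groups in the fit (-0.57) and the replicate number as a block (-0.58). The same held with a filter of at least 1 count (-0.58) or of at least 10 counts in every library (-0.57). Pkm was at 1699, 2063 and 2074 CPM in control, 1553, 1722 and 1559 CPM in hypoxia and 1552, 1562 and 1582 CPM with rSRGN, and was not called in either comparison.

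Other transcripts came near the limits. Gm44250 had a log2 fold change of 0.47 with rSRGN (edgeR adjusted p = 0.00917), which was under 1.5-fold, and was called without hypoxia replicate 1 (0.59) or rSRGN replicate 3 (0.61). Gm42725 had a log2 fold change of -0.45 (edgeR adjusted p = 0.0494), also under 1.5-fold, and was called without hypoxia replicate 2 (-0.64). Gm43980 had 0.72 (edgeR adjusted p = 0.0803) and was called without hypoxia replicate 1 (1.11). No ratio of a transcript to its host was called between the hypoxic groups in limma, where 0.957% of all pairs were, with 9 of 45 at an unadjusted p below 0.05 and 12 when voom weights were used, which also gave no call. The 10 of 1045 pairs behind that share were not stable, as they were 0 to 8 with 1 library left out (0 without control replicate 1, control replicate 2, rSRGN replicate 1 or rSRGN replicate 3, 2 without hypoxia replicate 3 or rSRGN replicate 2, and 5 without hypoxia replicate 1), 0 with only the 2 groups in the fit, with the replicate number as a block or with a prior count of 0.5, and 19 with voom weights.

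Hypoxia + rSRGN against control used the same control libraries and gave 27 transcripts higher, where 24.1% of all genes were, 19 lower, where 24.7% were, and 15 not called (48.8% of all genes were called, edgeR). Among genes that are not protein-coding, 34.4% were higher and 22.1% lower. Gm42725 had a log2 fold change of 7.002, Gm43430 of 7.10, Gm45540 of 5.48, Gm45719 of 3.60 and Gm43621 of 3.67. BC002189 had -5.43, D330025C20Rik -3.74, Gm37829 -3.29, Gm45819 -3.05 and Gm47644 -2.79. The ratio to the host was higher for 22 of 45, where 42% of all pairs were, and lower for 10, where 11.5% were (53.5% in either direction). The ratio of BC002189 to Trim55, not called in hypoxia, was lower than in control with rSRGN, with a log2 change of -1.43 ± 0.36.

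Some genes of the machinery that ends, splices and clears such RNAs were called in hypoxia, where 26.4% of all genes tested were higher and 25.1% lower. Of 20 tested genes of nuclear RNA decay, 4 were higher and 2 lower. The exosome subunit genes Exosc1, Exosc3 and Exosc8 and the exosome cofactor gene Mphosph6 rose by 1.21, 0.86, 0.90 and 0.79, and Exosc4 and Nrde2, a gene of a nuclear partner of the exosome helicase, fell by 0.78 and 1.64 on the log2 scale. The catalytic subunit genes Dis3 and Exosc10 had values of 0.03 and -0.26. Of 24 genes of cleavage, polyadenylation and termination, Cpsf4 and Fip1l1 rose and Cpsf2, Wdr33, Cstf2t, Clp1 and Wdr82 fell, by up to 1.38 for Cstf2t. Of 32 core spliceosome genes, 9 were higher, among them 6 Sm protein or U1 protein genes led by Snrpg at 1.28, and Snrnp200 and Prpf8 were lower, by 0.86 and 1.00. Of 12 RNA polymerase II subunit genes, 3 were higher and 1 lower. Between the hypoxic groups no gene of these 4 lists was called in edgeR, where 3.13% of all genes were, with list medians between -0.28 and -0.05. Under the 1.5-fold limit, all rSRGN libraries lay below all hypoxia libraries for 8 of 12 polymerase II and 14 of 32 spliceosome genes. The same held for 8 of 20 decay genes and 3 of 24 cleavage genes, against 15.5% of all genes. They lay above for 0, 4, 1 and 2 genes of these lists, against 16.5% of all genes.

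The transcript models differed in 1 further feature by call, which was looked at with the calls known and not tested. A run of at least 10 A lay somewhere in the model of 11 of the 20 transcripts that were lower in hypoxia (55%), of 5 of the 27 that were higher (18.5%) and of 2 of the 14 not called. It lay in 18 of all 61 (29.5%), and over all 3565 TEC or sense_intronic genes with a sequence the share was 17.6%. Lengths differed as well. The median model was 2617 bases long for the lower, 2311 for the higher and 2761 for those not called, against 1876 over all such genes. A longer model has more room for a run, and the part of length was not tested. The longest such run is shown for 3 of the transcripts that fell, with 15 bases on each side and the run in capitals, on the transcript strand.
Gm45819: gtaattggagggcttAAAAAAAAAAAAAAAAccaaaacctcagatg
Gm43668: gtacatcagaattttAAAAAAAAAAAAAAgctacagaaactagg
Gm43980: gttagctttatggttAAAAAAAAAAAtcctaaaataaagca

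These runs were 16, 14 and 11 bases long and lay at chr7:110120316-110120361, chr3:34075239-34075282 and chr6:49255051-49255091 with their flanks. A model that ends in such a run was rarer, with BC002189 and Gm49338 as the 2 cases among the 61 (3.28%), against 0.533% of all such genes. Median GC content was 44.5% for the 61 and 42.5% for all.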

How the data were processed

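The authors deposited whole-number counts of fragments per gene, 1 column per library and without normalization, from featureCounts 2.0.1 with GENCODE M25 exons (GRCm38, mm10) and no strand option, per the file headers. HISAT2 is named in the submitters' processing notes. Fragments that fall equally on exons of more than 1 gene are left out by default, and unspliced host RNA inside a model is counted to it. All 9 columns were used.

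Counts were filtered with filterByExpr, TMM-scaled and tested over all 9 libraries with a mean per group in R 4.3.3 with edgeR 4.0.16 (quasi-likelihood, Benjamini-Hochberg adjustment). Ratios to hosts were tested in limma 3.58.1 on log2 CPM (prior count 2), which understates changes of low genes. A host was a protein-coding gene over at least 50% of the span, same strand first. The alternatives included DESeq2 1.42.0, scaling, filters, voom weights and leave-one-out fits. Figures were drawn with matplotlib 3.10.9. The steps were tested on simulated data. No 2 libraries of a group agreed within sampling noise.

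The transcripts, the gene lists (nuclear RNA decay, cleavage and polyadenylation, core spliceosome, RNA polymerase II, cardiomyocyte, fibroblast, endothelial, macrophage and mitochondrial rRNA) and the tests were chosen with earlier results of these data known. Transcripts were named for the 5 highest levels per kilobase, the 5 largest rises and falls in hypoxia among called transcripts with no overlap, up to 4 rises and falls with rSRGN, the 4 largest rises and falls of the ratio, the 3 hosts holding most transcripts (ties by counts), and the 2 on each side of the count limit. Others were named after their values were seen. Sequences came from the GENCODE M21 transcripts, where all 61 matched and 60 had the same length.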

Additional observations from a re-analysis of the deposited data

How the results depend on the processing

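The count of called transcripts in the comparisons with control, both directions together, moved by at most 1.5 times under the alternatives tried (45 to 49 in hypoxia with 1 library left out), apart from a higher count limit. By direction it moved more: in hypoxia 12 were lower among the 41 that shared no exon base, against 20 of 61, and 6 were higher and 37 lower among the 59 taken for control counts, and with rSRGN against control the values were 10 lower of the 41, against 19 of 61, and 5 higher and 36 lower of the 59. Limited to transcripts with at least 900 counts, 15 of 19 were called in both. By direction these were 6 higher and 9 lower in hypoxia, and 5 higher and 10 lower with rSRGN against control. For hypoxia + rSRGN against hypoxia, where 4 of 61 were called, the count was 2 with at least 10 counts in every library, 2 in DESeq2, 0 with only the 2 groups compared, 7 with no fold limit and 1 among the 41 transcripts that shared no exon base with another gene, an alternative chosen after seeing the data. Leaving out 1 library each gave 1 to 6, and over all genes 316 to 691 against 525, or 2790 with no fold limit. For these alternatives the cause was not tested, except that the last 2 limits on transcripts leave fewer to count.

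Between the hypoxic groups the log2 fold change turned sign for some uncalled transcripts. Gm43621 was at -0.0023 with library size alone. Over left-out libraries the values ran from -1.27 to 0.047 for BC002189, from -0.091 to 0.13 for Gm43621 (-0.072 without hypoxia replicate 1), from -0.089 to 0.22 for C230096K16Rik (-0.025 without hypoxia replicate 2) and from -0.27 to 0.29 for Gm43857.

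Libraries with the same number did not deviate together (correlations from -0.037 to 0.021), so the numbers do not pair them. With the replicate number as a block, 47, 3 and 46 transcripts were called in hypoxia against control, rSRGN against hypoxia and rSRGN against control, the call of Gm49759 being lost in the middle one. Few control counts limit the precision for the largest rises.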
